A study of Mus musculus with 48 samples.

Results

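Mouse hypothalamus was sequenced in 2 early series whose labels do not differ, and the comparison described here sets the second of them against the first. The members were chosen by title: libraries whose titles end in 3 (free moving) or 4 (unloaded) make up the second series, and those ending in 1 (free moving) or 2 (unloaded) the first. That gave 12 libraries on each side, 24 of the 48 in the study. In the second and in the first series alike the mice were C57BL/6 males, 2 months old, kept at 10 dBA and normal pressure. Within each side, 6 libraries came from mice in hind limb unloading, in which the tail is lifted so that the hind limbs bear no weight, and 6 from mice that moved freely. The 6 libraries of a set carry the title numbers 1, 5, 9, 13, 17 and 21, for which the labels give no unit. Each library was a pool of total RNA from 3 mice. Nothing in the labels tells the second series from the first, so the comparison measures how far same-labelled pools differed. With 2 sets a side, p-values measure only the spread among these pools.

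The hypothalamus holds neurosecretory neurons that release oxytocin, vasopressin and the pituitary-regulating hormones, feeding neurons of the arcuate nucleus, and the suprachiasmatic clock. Ciliated ependymal cells and tanycytes line the third ventricle beside it, and the pituitary, thalamus, striatum and basal forebrain border it, so that their transcripts can enter a dissected block. In tissue sequenced as a whole, fewer cells of a type and less RNA per cell cannot be told apart. Values are the deposited RPKM (reads per kilobase of transcript per 1000000 reads), which are shares of one library: transcripts that take up more of a library leave less for the others.

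The tissue label was borne out by its defining peptides in every library. Avp, the vasopressin precursor, lay between 3173 and 6294 RPKM in the second series and between 1596 and 7580 RPKM in the first, and Hcrt, the orexin precursor, averaged 333 ± 76.2 and 273 ± 82.5 RPKM (SD, n = 12 each). An estimate from the steps between low RPKM values put depth at 31.8 M to 47.1 M reads in the second series and 28.3 M to 55.2 M in the first (M for 1000000). No 2 libraries were the same: across genes, the highest correlation within a set was 0.9937. The median correlation within a set was 0.987, and between second and first libraries of the same activity and number it was 0.9786. 4 libraries stood apart. Where a count of calls is given without the 3 libraries, those are the 3 of the first series; some counts are also given without all 4. Unloaded number 1 of the first series had a mitochondrial share far above its set. Unloaded number 9 of the first series held 12510 RPKM of anterior pituitary transcripts, against 28.72 to 140.9 RPKM in the other 5 of its set. Free-moving number 1 of the first series had the highest blood and striatal sums of the 24. The other, unloaded number 21 of the second series, had a mitochondrial share of 50.98%, above the 24.65% to 33.37% of the other 5 of its set, with the lowest Gad2, Cartpt and ependymal sum of that set.

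The share of RPKM on the 13 protein-coding genes of mitochondrial DNA, which encode subunits of the respiratory chain and ATP synthase, varied widely between libraries. In free-moving mice it was 31.7% to 53.2% in the second series (median 45.5%) and 18.7% to 62.4% in the first (median 42.7%). In unloaded mice it was 24.7% to 51.0% in the second series (median 32.5%) and 11.2% to 48.2% in the first (median 15.5%). The second series sat inside the range of the first when both activities were pooled, and the only wide gap lay between the unloaded sets, of which 5 of the 6 first-series libraries were below every second-series one. Over all 12 pairs of the same activity and number the share averaged 39.4% ± 9.41 in the second series and 31.2% ± 18.2 in the first (SD, n = 12 each). The mean paired difference was 8.23 percentage points (SD 16.8), with 7 of 12 pairs higher in the second series, and an exact two-sided sign-flip test on log2 odds gave p = 0.0708 (0.141 adjusted over the 3 tests). Among unloaded pairs the difference was 13.7 points with 5 of 6 higher (exact p = 0.0938, 0.141 adjusted), and among free-moving pairs 2.74 points with 2 of 6 higher (exact p = 0.688). With 6 pairs the smallest possible exact p is 0.0312. Over all tested genes, the axis along which the 24 libraries varied most held 57.81% of the variance. Its absolute correlation with the log2 odds of the mitochondrial share was 0.955, so the genes and lists below did not vary independently of one another.

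**Figure D1:**
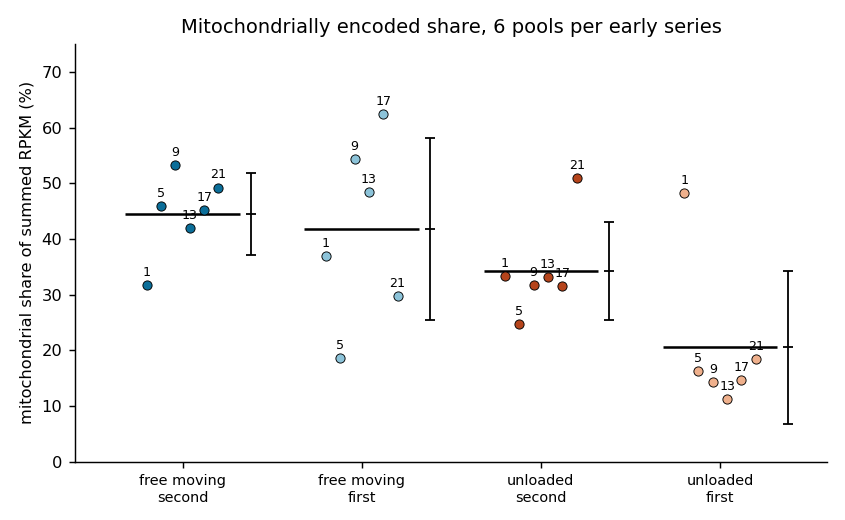
Share of RPKM on the 13 mitochondrially encoded genes (percent, y axis) in each of 24 libraries, labelled by title number; columns are free-moving second, free-moving first, unloaded second and unloaded first, lines are means and bars SD (n = 6). The first unloaded set lies at 11.2% to 18.5% except number 1 at 48.2%, while the second unloaded set starts at 24.7%.

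Across the genome most genes differed little in level between the second and first series. Of 13531 genes with a mean of at least 0.5 RPKM, 245 differed at an adjusted p below 0.05 (1.81% of those tested, limma on log2(RPKM + 0.5) with Benjamini-Hochberg adjustment). Of these, 145 were higher in the second series (1.07%) and 100 lower (0.739%). At an unadjusted limma p below 0.05 there were 3451 genes, 1004 higher and 2447 lower. The calls sat near the threshold: the smallest adjusted p was 0.02, and the sizes ran from 0.276 to 1.08 on the log2 scale with a median of 0.463. The typical gene differed by 0.156 in absolute log2 value, or 0.558 of its residual SD between libraries. The median over all tested genes was -0.104, so most values below are best read against that shift. For 84.9% of genes the 95% interval of the difference lay within 1.5-fold, and for 99.3% within 2-fold. Estimates beyond 1.5-fold were found for 124 genes (0.916%), and the only called gene beyond 2-fold was Zkscan16. All 245 calls had the same sign in both activities, but they were called on the mean of the 2 differences, which favours a shared sign. For 182 the difference was larger in the unloaded sets. Over all tested genes the median absolute log2 difference was also larger there, 0.21 against 0.14 in free-moving mice.

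The number of calls hung on single libraries. Leaving out title number 1 from all sets gave 4067 calls, and leaving out number 5, 13 or 17 gave 0, with 7 and 27 calls without 9 and 21. Without unloaded number 1 of the first series alone there were 3566, without unloaded number 13 or 17 of either series there were 0, and without free-moving number 17 of the second there was 1. Without free-moving number 9 or 17 of the first series the counts were 1138 and 1428, and without any other single library they ran from 2 to 633. Without the 3 first-series libraries that stood apart there were 2549 calls, 671 higher (4.96% of tested genes) and 1878 lower (13.9%), and these held all 245. With unloaded number 21 of the second series left out as well there were 1699, of which 747 were higher (5.52%) and 952 lower (7.04%), and they held 241 of the 245. Other settings also moved these background shares. They were 8.57% higher and 6.97% lower after quantile normalization and 8.94% and 5.78% after median-ratio scaling. With the mitochondrial share as a covariate they were 4.94% and 0.436%, without the title number as a block 0.392% and 0.163%, and with the length and GC trend removed 5.14% and 4.55%. Counts of list members in the main fit are to be read against its 1.07% higher and 0.739% lower. Counts under another setting are to be read against that setting's share of all genes.

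**Figure D2:**
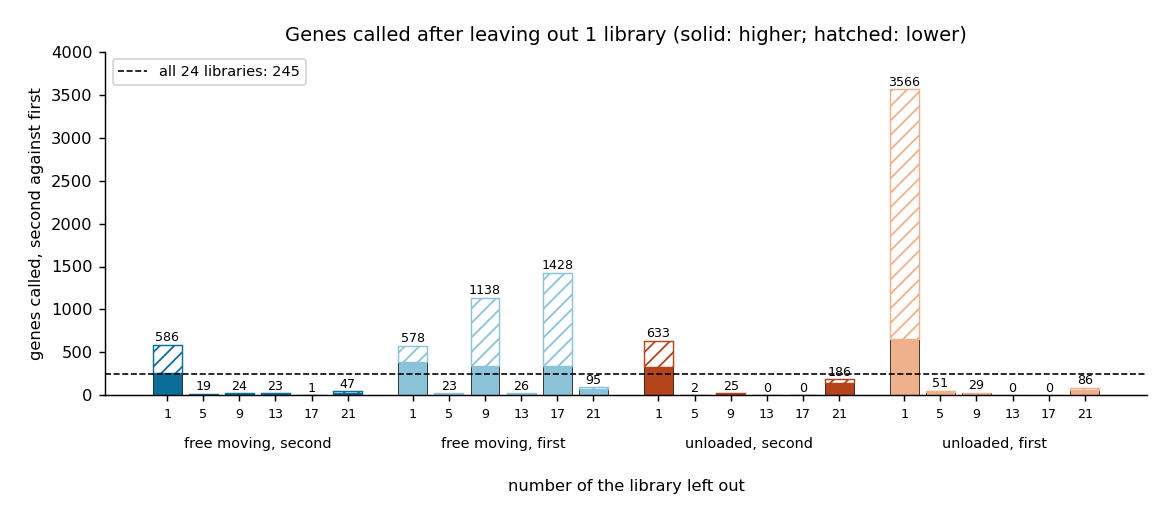
Number of genes called between the second and first series (y axis) when 1 library is left out of the fit, 1 bar per library on the x axis, solid for higher and hatched for lower in the second series; the dashed line is 245, the count with all 24. The bars run from 0 to 3566, and the tallest is unloaded number 1 of the first series.

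Ifi27l2a had the smallest p of all genes. It is an interferon-inducible gene on chromosome 12 (chr12:103442167-103443680, minus strand; positions here are GRCm38, GENCODE M21, matched by symbol). In free-moving mice it stood at 14.3 to 28.3 RPKM in the second series (median 19.2) and 6.02 to 14.8 RPKM in the first (median 9.81). In unloaded mice it was 10.8 to 16.1 RPKM in the second series (median 12.8) and 5.66 to 11.2 RPKM in the first (median 6.78). The second-series library was the higher in all 12 pairs, although the ranges of the 2 sides overlapped, with 6 second-series libraries above every first-series one and 8 first-series libraries below every second-series one. The difference was 0.89 ± 0.14 on the log2 scale (SE, limma adjusted p = 0.02). The list of interferon-stimulated genes, which does not hold Ifi27l2a, had no call by limma among 17 tested genes (median 0.164, against -0.104 over all genes). It had 4 higher calls after quantile normalization, where 8.57% of all genes were higher. Median-ratio scaling gave 4 higher and 1 lower (8.94% and 5.78% of all genes). Without the 3 libraries there were 6 higher and 1 lower (4.96% and 13.9%). Without all 4 there were 5 and 1 (5.52% and 7.04%). Other settings gave fewer calls. Rescaling after mitochondrial genes were dropped left 1 higher and 1 lower (3.47% and 8.25%). A covariate for the mitochondrial share also left 1 and 1 (4.94% and 0.436%). Removal of the length and GC trend left 1 higher and none lower (5.14% and 4.55%). A fit that did not block on title number called no member. The 5 genes whose departures from set and number means went most closely with those of Ifi27l2a over the 24 libraries were Lypd2 (Pearson r = 0.883), Lgals1 (0.882), S100a11 (0.862), Nupr1 (0.848) and Crabp1 (0.84), given as a description. Timp1, an inhibitor of metalloproteinases, rose beside them by 0.62 ± 0.12, to 1.92 ± 0.672 RPKM in the second series against 1.08 ± 0.427 RPKM in the first (limma adjusted p = 0.0249); it was picked after its values were seen.

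Lypd2 had the largest rise among called genes of at least 1 RPKM. It encodes a protein of the Ly6/uPAR family (chr15:74732247-74734329, minus strand). Free-moving libraries held 2.94 to 10.7 RPKM in the second series and 1.17 to 5.19 RPKM in the first, and unloaded libraries 2.98 to 5.26 RPKM in the second and 0.865 to 4.38 RPKM in the first. Of the 12 first-series libraries 7 were below every second-series one, and the second was higher in 11 of 12 pairs (0.92 ± 0.18, limma adjusted p = 0.0249). Rps6kb2, a kinase of ribosomal protein S6 on chromosome 19 (chr19:4153991-4163354, minus strand), was 24.9 to 31.9 RPKM in free-moving second-series libraries against 12 to 22.1 RPKM in the first, so that the free-moving sets did not overlap. In unloaded mice Rps6kb2 was 18.0 to 28.4 RPKM in the second series and 8.02 to 28.6 RPKM in the first, where number 1 was the high one. It rose by 0.69 ± 0.12 in 11 of 12 pairs (limma adjusted p = 0.0207).

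Several of the other large rises were of weakly expressed genes. Cox8b, a muscle isoform of a cytochrome c oxidase subunit, averaged 1.42 ± 0.684 RPKM in the second series and 0.548 ± 0.423 RPKM in the first (0.90 ± 0.21), and Myl7, an atrial myosin light chain, 1.70 ± 0.911 and 1.05 ± 1.27 RPKM (0.69 ± 0.18). Wfdc2, a secreted protease-inhibitor-like protein, was 2.24 ± 1.08 RPKM in the second series against 1.12 ± 0.726 RPKM in the first (0.80 ± 0.21), and Crygn, a crystallin, 3.56 ± 1.32 against 1.96 ± 0.990 RPKM (0.76 ± 0.17). Rpl36a-ps1, whose reads could belong to other copies of the gene, was 1.43 ± 0.700 RPKM in the second series and 0.650 ± 0.307 RPKM in the first (0.71 ± 0.16). Better expressed were Fxyd5, a regulator of the sodium pump, at 13.9 ± 3.28 against 8.60 ± 2.96 RPKM (0.70 ± 0.13, higher in 11 of 12 pairs), and Mia at 19.3 ± 4.62 against 12.7 ± 5.02 RPKM (0.64 ± 0.14). For these 7 genes the limma adjusted p lay between 0.0249 and 0.0488 and each side held 12 libraries.

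**Figure D3:**
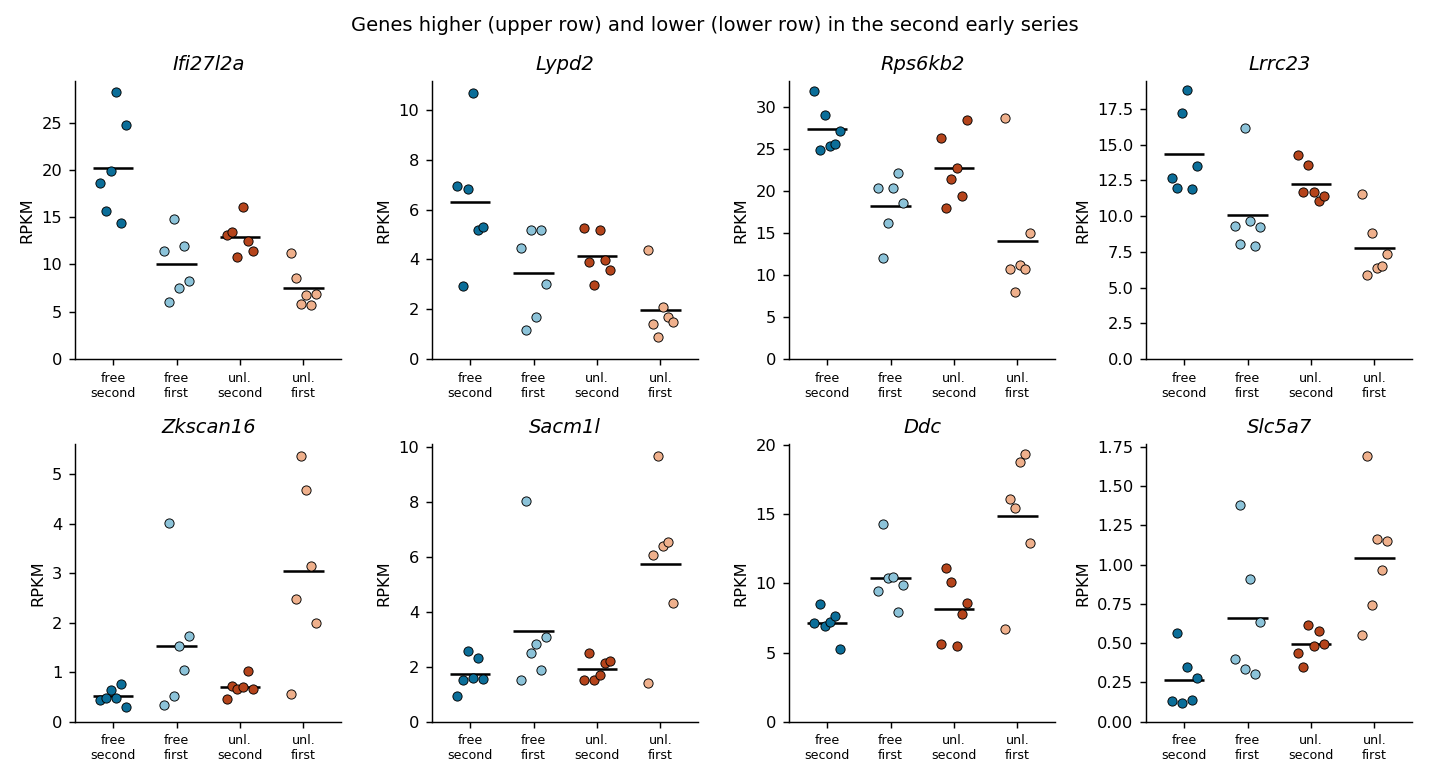
RPKM (y axis) of 8 genes in each library, columns as free-moving second, free-moving first, unloaded second and unloaded first, with means as lines (n = 6). Ifi27l2a, Lypd2, Rps6kb2 and Lrrc23 in the upper row are higher in the second series, and Zkscan16, Sacm1l, Ddc and Slc5a7 in the lower row are lower, with the first series the more widely spread for Zkscan16 and Sacm1l.

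The largest fall was that of Zkscan16, a zinc finger protein (chr4:58943628-58958355, plus strand). Free-moving libraries held 0.293 to 0.755 RPKM in the second series and 0.329 to 4.02 RPKM in the first, while unloaded ones held 0.463 to 1.01 RPKM in the second and 0.569 to 5.36 RPKM in the first. Every second-series library was low, whereas the first series spread more widely and had 9 of 12 libraries above all of the second. Its number 1 libraries were the lowest of both first-series sets. The fall was 1.08 ± 0.20 on the log2 scale in 10 of 12 pairs (limma adjusted p = 0.0249). Sacm1l, a phosphoinositide phosphatase of the endoplasmic reticulum (chr9:123529759-123592600, plus strand), had the same layout: 0.925 to 2.57 RPKM over the second series and 1.42 to 9.69 RPKM over the first, with 8 of 12 first-series libraries above all of the second. It fell by 0.92 ± 0.18 (limma adjusted p = 0.0249). Other falls included Apex1, an endonuclease of base excision repair, at 3.33 ± 0.905 RPKM in the second series and 7.44 ± 4.20 RPKM in the first, and Nos1ap, an adaptor of neuronal nitric oxide synthase, at 0.880 ± 0.262 and 2.29 ± 1.46 RPKM. Usp33, a deubiquitinase, was 1.15 ± 0.287 RPKM in the second series and 2.64 ± 1.72 RPKM in the first, and Fam126b 1.23 ± 0.410 and 2.58 ± 1.46 RPKM. In all 4 the SD of the second series was under that of the first, with limma adjusted p between 0.034 and 0.0488.

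Gad2, which makes GABA (chr2:22622205-22693874, plus strand), was 11.2 to 17.2 RPKM in free-moving second-series libraries (median 13.8) and 10.2 to 39.2 RPKM in the first (median 23.1). In unloaded mice it was 12.6 to 22 RPKM in the second series (median 19.2) and 13.2 to 43.6 RPKM in the first (median 40.3), where number 1 was the lowest and the other 5 lay above every second-series library. It fell by 0.71 ± 0.18, lower in 9 of 12 pairs (limma adjusted p = 0.0442). Lhx6, a transcription factor of migrating interneurons, fell to 2.48 ± 0.573 RPKM against 4.24 ± 1.76 RPKM in the first series (-0.59 ± 0.15), and the nicotinic receptor subunit Chrna6 to 1.21 ± 0.521 against 2.41 ± 1.12 RPKM (-0.74 ± 0.14). Gpr52, an orphan receptor, fell to 0.331 ± 0.122 RPKM against 1.04 ± 0.821 RPKM in the first series (-0.71 ± 0.15), and the kinase Dclk3 to 3.15 ± 1.28 against 6.21 ± 2.79 RPKM (-0.81 ± 0.17). Limma adjusted p lay between 0.0249 and 0.0452 for these 4 genes.

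Of 12 genes of cholinergic neurons, a list drawn up after the values were seen, 5 were lower in the second series and none higher, with a median of -0.448 against -0.104 over all genes. Slc5a7, the choline transporter of cholinergic terminals, was at 0.118 to 0.566 RPKM in free-moving and 0.351 to 0.616 RPKM in unloaded second-series libraries. In the first series it was at 0.303 to 1.38 RPKM in free-moving and 0.550 to 1.69 RPKM in unloaded libraries. It was lower in all 12 pairs (-0.58 ± 0.11, limma adjusted p = 0.0249). Other falls on the list were those of Lhx8, a transcription factor of basal forebrain cholinergic neurons (1.25 ± 0.551 against 2.53 ± 1.27 RPKM), Gbx1 (0.617 ± 0.272 against 1.25 ± 0.562 RPKM) and the vesicular transporter-like Slc10a4 (5.97 ± 1.24 against 9.83 ± 3.76 RPKM), each with the second series given before the first. Chat, the acetylcholine-synthesising enzyme, was 0.363 ± 0.136 RPKM in the second series and 0.767 ± 0.499 RPKM in the first, and did not pass (-0.45 ± 0.13, limma adjusted p = 0.0675). The list had 8 lower calls without the 3 libraries that stood apart, where 13.9% of all genes were lower. It had 3 with the mitochondrial share as a covariate (0.436%) and 2 without the title number as a block (0.163%). Its 12 genes summed to medians of 160.1 and 184.7 RPKM in the free-moving and unloaded second series and 150.8 and 194.2 RPKM in the first, since abundant Ache and Ecel1 carried most of the sum.

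Among 9 tested genes of monoamine synthesis and transport, also listed after the values were seen, 2 were lower and none higher (median -0.315). Ddc, the decarboxylase that makes dopamine and serotonin, was 5.25 to 8.54 RPKM in free-moving second-series libraries and 7.92 to 14.3 RPKM in the first. In unloaded mice it was 5.50 to 11.1 RPKM in the second series and 6.70 to 19.4 RPKM in the first. It was lower in all 12 pairs by 0.66 ± 0.13 on the log2 scale (limma adjusted p = 0.0249), the side ranges overlapping. Tph2, the serotonin-synthesising enzyme of raphe neurons, was 0.0507 to 1.28 RPKM over the second series and 0.165 to 3.53 RPKM over the first (-0.95 ± 0.25, limma adjusted p = 0.0486). Without the 3 libraries that stood apart 5 of the 9 were lower, against 13.9% of all genes. With the mitochondrial share as a covariate 1 was lower (0.436%), and without the title number as a block 1 was (0.163%).

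Striatal markers had no positive value among 10 genes (median -0.459), of which only Pde10a, a cyclic nucleotide phosphodiesterase of medium spiny neurons, was called. Pde10a stood at 0.744 to 3.31 RPKM in the second series and 0.956 to 9.73 RPKM in the first (-0.81 ± 0.21, limma adjusted p = 0.0488). Drd2, the dopamine receptor of indirect-pathway neurons, averaged 6.05 ± 1.79 RPKM in the second series and 9.69 ± 4.51 RPKM in the first (limma adjusted p = 0.0649). Penk, the enkephalin precursor, averaged 109 ± 38.8 RPKM in the second series and 157 ± 80.8 RPKM in the first (limma adjusted p = 0.144), and neither gene passed. The 10 striatal genes summed to 104.3 to 335.3 RPKM in the second series and 138.3 to 667.3 RPKM in the first, and no defining marker was at 0 in any library. The neighbouring-tissue lists of thalamus and of cortex and hippocampus had medians of -0.0987 and -0.0784, with 1 and 0 calls. The thalamus call was Zic1, a transcription factor, at 6.64 ± 1.57 RPKM in the second series and 9.13 ± 2.02 RPKM in the first (limma adjusted p = 0.0466). What part of the falls in Gad2 and in cholinergic and monoamine genes went with the amount of neighbouring tissue was not tested.

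Genes of the ribosome and of the respiratory chain were among the rises. Of 36 cytosolic ribosomal proteins 6 were higher and none lower, 34 had positive values, and the median was 0.256. Rps29, of the small subunit, was 1128 to 1692 RPKM over the second series and 643.4 to 2511 RPKM over the first, where free-moving number 1 was the highest of all 24 and 8 others lay below every second-series library (0.54 ± 0.13, limma adjusted p = 0.0442). Rps19 averaged 283 ± 37.2 RPKM in the second series and 221 ± 78.5 RPKM in the first, and Rpl26 739 ± 87.9 against 584 ± 260.3 RPKM. Reads of ribosomal protein genes can be split with near-identical pseudogenes, so single values are uncertain. The count of ribosomal calls was 24 without the 3 libraries (where 4.96% of all genes were higher), 17 and 18 after median-ratio scaling and quantile normalization (8.94% and 8.57%), 13 with the length and GC trend removed (5.14%), 5 with the mitochondrial share as a covariate (4.94%) and 1 without the number block (0.392%).

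Nuclear genes of the respiratory chain had 3 higher and 0 lower calls among 30 (median 0.204). These were Ndufa1 (290 ± 29.8 against 219 ± 82.8 RPKM) and Ndufv3 (44.4 ± 5.48 against 34.4 ± 5.47 RPKM) of complex I and Uqcrq of complex III (166 ± 17.6 against 129 ± 34.1 RPKM), second series first and n = 12 a side. Quantile normalization gave 11 higher and 5 lower members, where 8.57% of all genes were higher and 6.97% lower. A fit without the 3 libraries gave 13 and 5, where the shares were 4.96% and 13.9%. The 13 mitochondrially encoded genes all had positive values, with a median of 0.727 (0.297 in free-moving and 1.16 in unloaded mice), and none was called. Mt-Nd1, of complex I, was 12710 to 36670 RPKM in the second series and 4852 to 47490 RPKM in the first (0.71 ± 0.26, limma adjusted p = 0.106). Without the 3 libraries 12 of the 13 were higher (against 4.96% of all genes), and after quantile normalization 1 was (8.57%). Unloaded number 1 of the first series was left out for its high mitochondrial share, so the 12 follow in part from that choice. Without all 4 libraries 8 were higher (5.52%).

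Transcripts of ciliated ependymal cells were higher in part. Of 10 markers of ependymal cells and tanycytes 3 rose and 1 fell (median 0.137). Ccdc153 of motile cilia averaged 20.4 ± 2.19 RPKM in the second series and 15.6 ± 4.20 RPKM in the first (0.42 ± 0.10), and the dynein light chain Dynlrb2 12.3 ± 2.31 and 9.34 ± 2.79 RPKM (0.40 ± 0.11). Rax, a homeobox factor of tanycytes that is also expressed in pituicytes, was 2.62 to 6.45 RPKM in the second series and 1.31 to 6.80 RPKM in the first, where both number 1 libraries were the highest of their sets (0.66 ± 0.17, limma adjusted p = 0.0491). The member that fell was Slc17a8, a vesicular glutamate transporter, at 0.321 ± 0.101 RPKM against 0.693 ± 0.275 RPKM in the first series (-0.52 ± 0.11, limma adjusted p = 0.0333). Summed RPKM of the 10 markers ran from 80.81 to 145.3 in the second series and 87.21 to 201.6 in the first, and none was at 0 in any library.

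Lrrc23, a radial spoke protein of the ciliary axoneme (chr6:124769863-124779727, minus strand), was higher in all 12 pairs. It was 11.9 to 18.8 RPKM in free-moving second-series libraries and 7.94 to 16.2 RPKM in the first. In unloaded mice it was 11.1 to 14.2 RPKM in the second series and 5.86 to 11.6 RPKM in the first. Over both activities 10 of the 12 first-series libraries were below every second-series one, and the rise was 0.59 ± 0.10 (limma adjusted p = 0.0207). A list of motile cilia and axoneme genes, drawn up after the values were seen, had 6 higher and no lower calls among 50 tested (median 0.18, 36 positive). Its calls included Riiad1 (14.7 ± 2.68 against 10.1 ± 3.76 RPKM), Morn5 (2.95 ± 0.491 against 1.85 ± 0.564 RPKM), Daw1, an assembly factor of dynein arms (2.29 ± 0.532 against 1.62 ± 0.742 RPKM), Zmynd10, another dynein assembly factor (4.51 ± 0.777 against 3.39 ± 0.674 RPKM), and Cfap100 (4.93 ± 0.698 against 3.62 ± 1.91 RPKM), all second against first. Median-ratio scaling gave 19 higher members (against 8.94% of all genes), quantile normalization 23 (8.57%) and a fit without the 3 libraries 18 (4.96%). Each had 1 lower member, and the fit without the number block gave 3 higher (0.392%).

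Of 15 glucocorticoid-induced genes on the list 2 fell and none rose, with a median of -0.363 and 2 positive values. Ddit4, an inhibitor of mTOR signalling, was 14.0 to 27.1 RPKM in the second series and 16.5 to 49.3 RPKM in the first, where 7 of 12 libraries lay above all of the second (-0.54 ± 0.13, limma adjusted p = 0.0447). Klf9, which thyroid hormone and glucocorticoids both induce, was 3.48 to 11.1 RPKM in the second series and 4.89 to 15.4 RPKM in the first, and fell in 11 of 12 pairs (-0.56 ± 0.13, limma adjusted p = 0.0378). Sgk1, a kinase that is a standard readout of these hormones, was 3.84 to 24.5 RPKM in the second series and 3.17 to 33.3 RPKM in the first and did not pass (-0.91 ± 0.28, limma adjusted p = 0.0738). Fkbp5, the glucocorticoid receptor co-chaperone, averaged 4.36 ± 1.41 and 6.21 ± 3.14 RPKM (-0.35 ± 0.14, limma adjusted p = 0.147), second series before first. Klf15, a zinc finger factor that is not on the list and was picked after its values were seen, averaged 6.11 ± 1.35 RPKM in the second series and 8.61 ± 2.55 RPKM in the first (-0.43 ± 0.11, limma adjusted p = 0.0443). The list had 5 lower and 1 higher call without the 3 libraries (where 13.9% of all genes were lower), 8 lower and 1 higher without all 4 (7.04% lower), none with the mitochondrial share as a covariate and none without the number block.

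Among hypothalamic peptides, 1 of 8 neurohypophysial and releasing hormones and 1 of 11 feeding and arousal peptides rose, and none fell (medians 0.227 and 0.117). Of all tested genes 1.07% rose. Cartpt, an arcuate satiety peptide, was 82.0 to 157.8 RPKM in the second series and 70.1 to 159.3 RPKM in the first, higher in 11 of 12 pairs (0.42 ± 0.10, limma adjusted p = 0.0347). Ghrh, the growth hormone-releasing hormone, was 12.3 to 29.8 RPKM in the second series and 8.45 to 24.4 RPKM in the first (0.56 ± 0.14, limma adjusted p = 0.0442). Oxt, oxytocin, ran from 1756 to 2625 RPKM in the second series and from 994.0 to 3227 RPKM in the first, with 9 first-series libraries below all of the second (0.44 ± 0.12, limma adjusted p = 0.0509). Limma adjusted p was 0.347 for Avp (0.23 ± 0.16), 0.149 for Crh (-0.34 ± 0.14), 0.103 for Pomc (0.72 ± 0.25) and 0.183 for Hcrt (0.31 ± 0.15). The value for Avp turned below 0 after quantile normalization (-0.34) and after removal of the length and GC trend (-0.020). Without the 3 libraries the releasing-hormone list had 4 higher of 8 and the feeding list 2 of 11, against 4.96% of all genes. With the length and GC trend removed, the releasing-hormone list had 0 higher and 1 lower, and the feeding list kept 1 higher with a median of -0.123.

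Pituitary and blood transcripts were high in single libraries of the first series. Gh, growth hormone, was listed at 0 to 6.47 RPKM in the second series and at 0 to 14.9 RPKM in 11 libraries of the first, while unloaded number 9 of the first series stood at 10150 RPKM. Anterior pituitary sums had medians of 157.9 RPKM in free-moving and 90.9 RPKM in unloaded second-series libraries, against 72.62 and 33.92 RPKM in the first. Of the 7 tested genes only Pitx1, a pituitary transcription factor, was called (0.75 ± 0.17, limma adjusted p = 0.034). It averaged 1.88 ± 0.430 RPKM in the second series and 1.08 ± 0.908 RPKM in the first. Without the 3 libraries 3 of the 7 were higher, against 4.96% of all genes. Unloaded number 9 of the first series was left out for its high pituitary sum, so this count follows in part from that choice. Of the 9 pituitary genes in the table, Prl was at 0 in 15 of 24 libraries, Ghrhr in 20 and Pou1f1 in 10. Blood genes, 7 in all, had positive values throughout (median 0.702) with no call, and their sums were 1445 to 3436 RPKM in the second series and 529.1 to 6255 RPKM in the first. Hba-a1, a globin whose reads can be shared with Hba-a2, averaged 620 ± 194 and 497 ± 478 RPKM, second before first (0.70 ± 0.28, limma adjusted p = 0.132). S100a8 of neutrophils averaged 2.57 ± 1.16 and 1.41 ± 1.98 RPKM (0.98 ± 0.28, limma adjusted p = 0.0628). Without the 3 libraries 5 of the 7 blood genes were higher, against 4.96% of all genes. Free-moving number 1 of the first series was left out for its high blood sum, so this count too follows in part from the choice.

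Of 14 genes of the unfolded protein response 1 rose, and of 13 heat shock chaperones 1 rose, against 1.07% of all tested genes. Ddit3, a transcription factor of the unfolded protein response, was 48.4 to 75.9 RPKM in the second series and 32.1 to 87.0 RPKM in the first, with 10 first-series libraries below all of the second (0.45 ± 0.08, limma adjusted p = 0.0249). Cryab, a small heat shock protein of glia, averaged 227 ± 42.7 and 177 ± 40.9 RPKM and was higher in the second series in all 12 pairs (0.37 ± 0.09, limma adjusted p = 0.0452). The heat shock list had 0 higher and 1 lower call after quantile normalization, and none without mitochondrial genes, with the mitochondrial share as a covariate, without the title number as a block or without all 4 libraries.

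**Figure D4:**
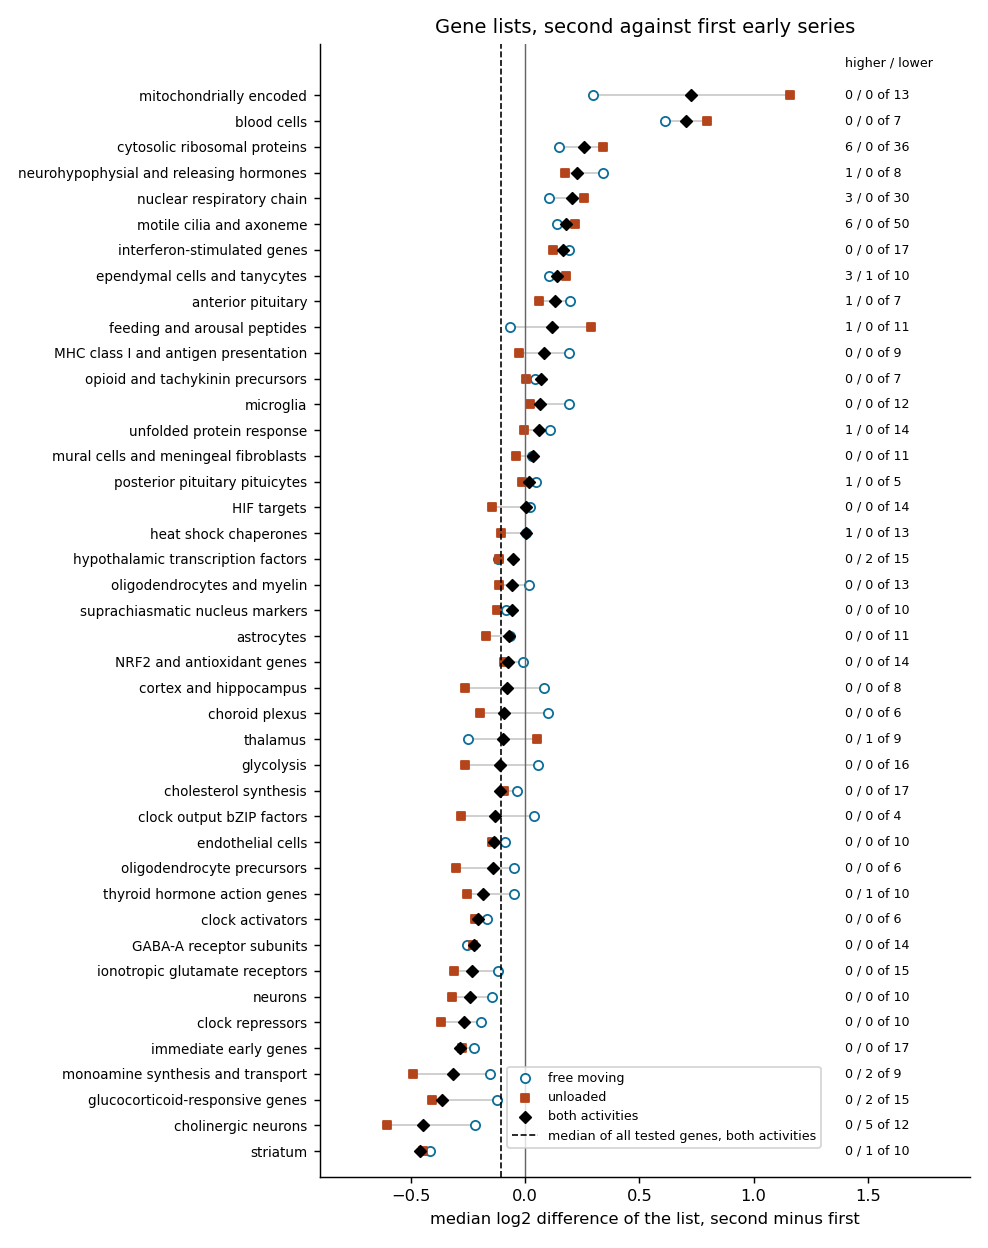
Median log2 difference of second against first series (x axis) for each gene list (y axis), with circles for free-moving, squares for unloaded and diamonds for both activities; the dashed line is the median of all tested genes, -0.104, and numbers at the right are members called higher and lower. Mitochondrially encoded and blood genes lie farthest to the right at 0.727 and 0.702, and striatal and cholinergic genes farthest to the left at -0.459 and -0.448. The cholinergic, monoamine and cilia lists were drawn up after the values were seen, so their places carry no weight as a ranking.

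Of 43 lists, 3 of them drawn up after the values were seen, 26 had no called member by limma. Among the 26 were every clock list and the immediate early genes. Neuronal markers had a median of -0.243 over 10 genes, ionotropic glutamate receptors -0.233 over 15 and GABA-A receptor subunits -0.224 over 14. Astrocyte and oligodendrocyte markers had medians of -0.0694 and -0.0564 and microglial markers one of 0.0662 over 12 genes, against -0.104 over all genes. The microglial list had 3 higher calls after quantile normalization (against 8.57% of all genes), 5 after median-ratio scaling (8.94%), and 3 without the 3 libraries (4.96%). Immediate early genes had a median of -0.286 over 17. Without the 3 libraries, where 13.9% of all genes were lower, neuronal markers, glutamate receptors and GABA-A subunits had 4 lower calls each and immediate early genes 5 lower and 1 higher. Without all 4, where 7.04% of all genes were lower, the lower calls were 3, 2, 2 and 2. Immediate early genes then had 2 higher, against 5.52% of all genes. Fos, the standard readout of recent activity, averaged 4.43 ± 2.14 RPKM in the second series and 6.36 ± 3.18 RPKM in the first (limma adjusted p = 0.187). Arc averaged 4.59 ± 0.703 and 6.08 ± 2.66 RPKM (0.196) and Npas4 5.77 ± 0.715 and 4.81 ± 1.04 RPKM (0.132), second before first. Gfap, the astrocyte filament, averaged 177 ± 30.0 and 141 ± 36.7 RPKM (limma adjusted p = 0.0873).

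No clock gene was called, and the order of title numbers differed from set to set. Repressors had a median of -0.269 over 10 genes, activators -0.207 over 6 and output factors -0.134 over 4, none called. Repressors had 2 lower calls without the 3 libraries (against 13.9% of all genes) and none without all 4 (7.04%). Dbp, an output of the clock, averaged 31.9 ± 12.5 RPKM in the second series and 36.1 ± 15.5 RPKM in the first (-0.15 ± 0.15, limma adjusted p = 0.528; 0.12 with the mitochondrial share as a covariate). Its lowest value was at number 9 in all 4 sets. Its highest was at number 1 in the free-moving second set (46.5 RPKM) and number 17 in the unloaded second set (58.3 RPKM), against number 21 (54.7 RPKM) and number 17 (67.9 RPKM) in the first. Per2, a core repressor, peaked at numbers 1 and 17 in the free-moving and unloaded second sets and at 5 and 21 in the first, with highest-to-lowest ratios of 2.27 and 1.46 in the second and 6.1 and 1.8 in the first. For Nr1d1, which encodes REV-ERB alpha, the highest value was at number 17 in both unloaded sets and in the free-moving second set, and at 21 in the free-moving first set. With 1 library per number and set, these orders carry no test.

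**Figure D5:**
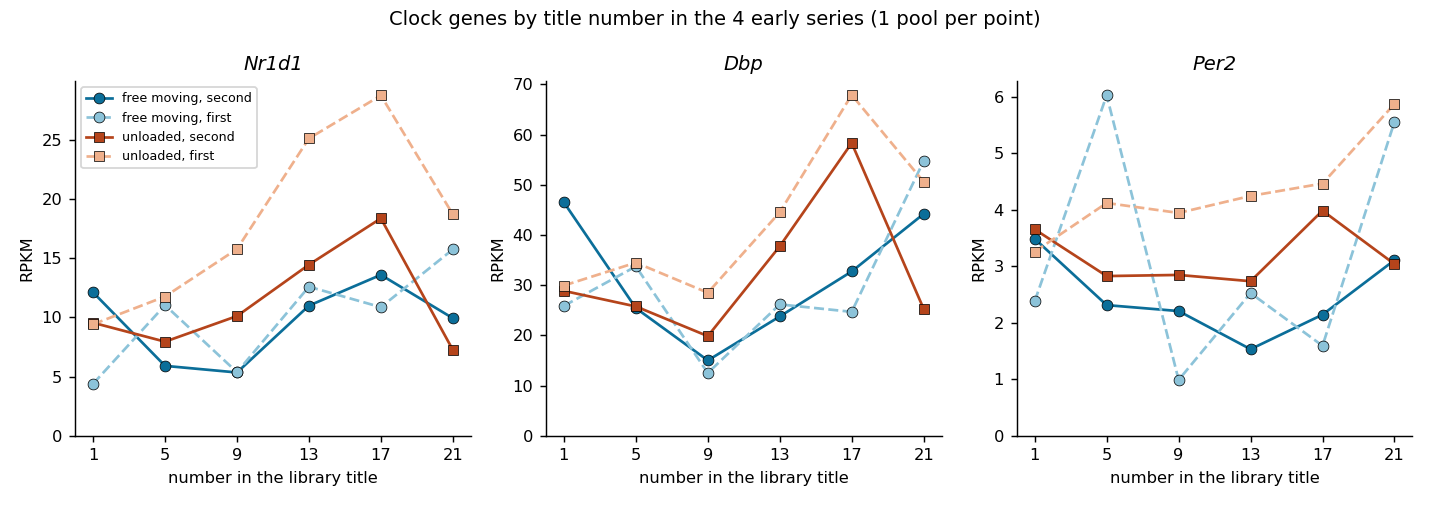
RPKM (y axis) of Nr1d1, Dbp and Per2 by title number (x axis, no unit in the labels), with 1 line for each of the 4 sets and 1 library per point. Dbp is lowest at number 9 in every set, while the number of its highest value differs between sets.

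Taken alone, the free-moving sets gave no gene at an adjusted p below 0.05 (0% of 13531 by limma; 1336 at an unadjusted p below 0.05). The smallest adjusted p, 0.0976, belonged to Gm8773 (-1.09 on the log2 scale), and Ifi27l2a followed with 1.00 and Smc4, a condensin subunit, with -0.66 (0.153 for both). The unloaded sets gave 27 genes (0.2%), 11 higher and 16 lower, and 1 without unloaded number 21 of the second series. The highest rises were those of Fam174c (0.88 ± 0.17), Riiad1 (0.81) and Rps6kb2 (0.78), and the deepest falls those of Zkscan16 (-1.37), Nos1ap (-1.23), Sacm1l (-1.21), the Golgi nucleotidase Entpd4 (-1.21), the pyridoxal kinase Pdxk (-1.16) and Gpr52 (-1.14), with limma adjusted p between 0.0477 and 0.0495. A test of the difference between the activities gave 0 genes (0% by limma; 567 at an unadjusted p below 0.05), so the larger number in unloaded mice was not shown to differ. Its smallest p-values belonged to Pcdhga4 (-1.20), Smc4 (0.89), Prlh, the prolactin-releasing peptide (1.87), and Serf1 (0.84), all at an adjusted p of 0.297. Reads of Pcdhga4 can be shared with other protocadherins of its cluster, whose last exons are common.

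Called genes differed from the rest in length and base composition. The 145 higher genes had a median exon length of 1836 bases, GC content of 55.7% and level of 17.5 RPKM, and the 100 lower ones 5055 bases, 46.4% and 2.60 RPKM, against 4433 bases, 50.2% and 6.23 RPKM for all tested genes. When genes were split into 5 equal bins by exon length, the shortest bin held 88 of the higher and 9 of the lower calls (median difference 0.0273), and the longest bin 7 and 30 (-0.2). By GC content, the lowest of 5 bins held 3 higher and 36 lower calls and the highest bin 64 and 8. Once a trend on length and GC was taken out of each library, 1297 genes were called, 688 higher and 609 lower. Of 53 called genes that were followed across settings and had a length, 45 kept their call. Whether RNA quality had a part in this was not tested.

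For scale, unloading was compared with free movement over both series in the same fit. Unloaded libraries differed in 4619 genes (34.1%), 4434 higher (32.8%) and 185 lower (1.37%). The typical absolute log2 difference was 0.239, or 0.863 of a residual SD, against 0.156 and 0.558 between the second and first series. Correlations of whole libraries gave the other order. Their median was 0.9847 between the 2 activities within a side. Between second and first libraries of the same activity it was 0.9786 for the same number and 0.9796 for other numbers. The direction of these calls varied with the scaling. Quantile normalization gave 732 higher and 781 lower, median-ratio scaling 523 and 801, and removal of the length and GC trend 564 and 618. Rescaling without mitochondrial genes kept more higher than lower, at 1213 and 411. Single libraries whose omission gave 0 unloading calls included unloaded numbers 1 and 9 and free-moving number 5 of the second series. Leaving out title number 9, 13 or 17 from all sets also gave 0. For 70.6% of genes the interval of the unloading difference lay within 1.5-fold. Gad2 was among the genes that moved in both comparisons: 0.56 ± 0.18 between unloaded and free-moving libraries (limma adjusted p = 0.028) and -0.71 ± 0.18 between the second and first series. Sgk1 differed by 1.02 ± 0.28 with unloading (limma adjusted p = 0.026) and Ifi27l2a by -0.49 ± 0.14 (0.026). The mitochondrial share averaged 34.3% ± 8.80 in unloaded and 44.5% ± 7.36 in free-moving libraries of the second series, and 20.5% ± 13.8 and 41.8% ± 16.3 in the first (SD, n = 6 each). With the share as a covariate, the count for unloading was 0 and that between the series 727, of which 668 were higher.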

How the data were processed

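The deposited table holds RPKM values for 21558 genes in 48 libraries; the authors made them from Illumina reads of Trizol-extracted total RNA, with CASAVA 1.8 and HISAT per the submitters' processing notes. The build, the annotation and the counter were not given in the sources used here, so overlapping and antisense genes may share reads. Libraries were grouped by their titles, and 0 columns were left out. The 13531 genes with a mean of at least 0.5 RPKM over 24 libraries were fitted with limma 3.58.1 (R 4.3.3) on log2(RPKM + 0.5), with a term for each of the 4 sets and for title number as a block (residual degrees of freedom: 15) and a trend of variance with level. This scale understates the change of low genes. A gene was called where its two-sided p, adjusted by Benjamini-Hochberg over the 13531 genes, was below 0.05; ± is the SE after a log2 value and the SD after RPKM or percent. Depth is not stated; it was estimated from the steps between RPKM values, with lengths for 21191 genes, where 54.1% to 69.0% of low values (up to 12 reads) were whole within 0.02 reads, against 4.0% by chance. It is therefore an estimate, and no counts were tested. The fit and the depth estimate were tested on simulated data.

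Same-numbered libraries of different sets deviated together only weakly (median r 0.0987 over 36 pairs, 18 above 0.1). For libraries of other numbers the median r was -0.0243 over 180 pairs, 47 above 0.1. The numbers serve as a block, and pairs by number match libraries and not animals. The comparison, the members and the lists were chosen with earlier results of these data known, and the 3 lists of cilia, cholinergic and monoamine genes, 16 single genes and 3 alternatives (length and GC, 3 or 4 libraries left out) after the values here were seen. Named genes are the 12 largest rises and falls among called genes with at least 1 RPKM in the higher side and 1 sign in at least 9 of 12 pairs, up to 6 each way per activity, or the 5 smallest p-values where none passed, up to 4 members per list by p, and a set of core genes; not all are printed, and a few results are not reported here. Of 96 such genes 94 had a position. Alternatives covered pseudocount, filters, scaling, covariates, weights, libraries in the fit and each library left out.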

Additional observations from a re-analysis of the deposited data

Results flagged for a closer look

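Of 132 groups of 6 libraries examined, 14 held a library separated from the other 5 by more of the group's range than Dixon's 95% limit allows; chance alone gives about 1 in 20. Unloaded number 21 of the second series had a mitochondrial share of 50.98% (24.65% to 33.37% in the others), the lowest Gad2 at 12.63 RPKM (19.01 to 21.98), the lowest Cartpt at 82.0 RPKM (111.4 to 131.2) and the lowest ependymal and tanycyte sum at 80.81 RPKM (114.6 to 140.9). Unloaded number 1 of the first series had a share of 48.16% (11.21% to 18.49%), mt-Nd1 at 28630 RPKM (4852 to 8998), Gad2 at 13.21 RPKM (36.91 to 43.61), Rax at 5.517 RPKM (1.312 to 2.231) and a neuronal sum of 950.1 RPKM (1527 to 1667). In the second series, free-moving number 1 had the lowest mt-Nd1 at 18740 RPKM (28770 to 36670), unloaded number 13 the highest Rax at 6.066 RPKM (3.152 to 4.05) and unloaded number 9 the highest Gh at 6.47 RPKM (0 to 0.4265). In the first series, free-moving number 9 had the highest Lrrc23 at 16.19 RPKM (7.937 to 9.631), and unloaded number 9 had an anterior pituitary sum of 12510 RPKM (28.72 to 140.9). What sets these libraries apart was not tested.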

How the results depend on the processing

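The counts of called genes moved widely, and the cause was not tested except where a setting leaves out libraries or genes. Between the second and first series the 245 calls became 135 with no filter and 146 with a filter at 5 RPKM. They became 2102 after quantile normalization (1159 higher, 943 lower), 1992 after median-ratio scaling (1210 and 782), 1748 without mitochondrial genes (518 and 1230, or 29.6% higher against 59.2%), 727 with the mitochondrial share as a covariate, 1416 with all 48 libraries (514 and 902), 6596 with array weights (1678 and 4918), 1297 without the length and GC trend, 2549 without the 3 libraries and 1699 without 4. Quantile normalization, median-ratio scaling and removal of the length and GC trend brought the median of all genes near 0 (-0.015, -0.002 and -0.004), and the covariate to 0.054. No replicate block gave 75. Leaving out 1 number or library gave 0 to 4067.

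In free-moving mice the 0 calls became 16 (quantile), 22 (median ratio), 10 (no mitochondrial genes), 43 (covariate), 35 (all 48), 1552 (array weights), 10 (length and GC) and 52 (4 libraries left out), with 0 to 21 when 1 number or library was left out. In unloaded mice the 27 became 0 with a pseudocount of 0.1, no filter, a filter at 5 RPKM, no intensity trend or no replicate block, and 960, 258, 121, 108, 7640, 548, 1428 and 546 with quantile normalization, median ratio, no mitochondrial genes, all 48, array weights, length and GC, and the 3 or 4 libraries left out (0 to 3466 by leaving out). The difference between activities gave 2 calls with the covariate, 3 with all 48, 1866 with array weights and 0 to 0 by leaving out. Unloading gave 0 with no filter or with the covariate, 1513, 1324, 1624 and 1182 with quantile, median ratio, no mitochondrial genes and length and GC, 7204 with all 48, 8298 with 4 libraries left out and 10303 with array weights (0 to 7885 by leaving out).

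The share of genes with an interval within 1.5-fold stayed between 74.3% and 95.5%. The mitochondrial share difference ran from 0.4814 to 0.9438 log2 odds when a number was left out; without number 1 the exact p was 0.0293, and it was 0.058 with no replicate block. Of single genes, 8 values turned, none of them called: Dbp to 0.1248 and Per2 to 0.007825 with the covariate, Avp to -0.3413 (quantile) and -0.01956 (length and GC), and Prl to 0.1624 and Gh to 0.4779 without the 3 libraries (0.1971 and 0.6412 without 4). No replicate block kept 25 of 54 called genes that were followed, the covariate 33 and the 3 libraries left out 54, and all 4 left out 53. With 2 sets a side, pools in place of animals and only an estimated depth, the precision is limited.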
